A study of Mus musculus with 23 samples.

Results

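The genes described here encode the proteins of the cytosolic ribosome. They were taken from the deposited count table by annotation alone, as protein-coding genes whose name starts with Rpl or Rps followed by a digit, together with Rplp0, Rplp1, Rplp2 and Rpsa, and without the ribosomal S6 kinases and names marked as pseudogenes. The rule found 86 of the 54532 genes in the table. Of these, 46 encode core proteins of the large subunit, 31 encode core proteins of the small subunit and 8 are paralogues of a core gene. The remaining gene is Rps19bp1, which carries the name of a small-subunit protein but encodes a protein that binds RPS19. Of the 86 genes, 85 passed the low-count filter and were tested, and the exception was Rpl10l.

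A cell assembles each subunit from ribosomal RNA and a near-complete set of proteins, so the mRNAs of these genes are abundant and are known to be made in similar proportion to each other. Their mRNAs classically start with a C followed by an uninterrupted run of pyrimidines, the 5′ terminal oligopyrimidine (TOP) tract, through which mTORC1 and the RNA-binding protein LARP1 control their translation and storage. Growth and division raise the demand for ribosomes, and macrophages recruited to an injured heart are known to include dividing and freshly differentiated cells.

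Poly(A) RNA was sequenced from Ly6G-negative, CD11b-positive cells, which the submitters call cardiac macrophages, sorted on magnetic columns from hearts of C57BL/6 mice. MyS7KO mice carry loxP-flanked Smad7 alleles together with Cre recombinase driven by the LyzM promoter, so recombination is limited to cells that have used this myeloid promoter, and S7fl/fl littermates carry the same floxed alleles without Cre. The 6 groups were MyS7KO and S7fl/fl at baseline (control hearts, 3 libraries each), at day 3 (5 libraries each) and at day 7 (4 MyS7KO and 3 S7fl/fl libraries) after permanent ligation of the left anterior descending coronary artery, with no reperfusion. The labels give no ages and do not say that each library is a separate heart, so a p-value measures the spread between these libraries, which may in part be technical. In sorted bulk RNA, fewer cells of a type and less RNA per cell cannot be told apart.

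The libraries held 15479402 to 23884938 counts on genes. Smad7 had 19.7 to 48.7 CPM (counts relative to library size, with edgeR's TMM scaling) in MyS7KO baseline libraries against 53.1 to 61.2 CPM in S7fl/fl baseline libraries. It had 10.5 to 19.9 CPM in MyS7KO day 3 libraries against 30.4 to 42.0 CPM in S7fl/fl day 3 libraries, and 16.0 to 33.4 CPM in MyS7KO day 7 libraries against 57.4 to 70.2 CPM in S7fl/fl day 7 libraries. The summed level of 10 macrophage markers was 11910 to 16310 unscaled CPM at baseline, 7833 to 10130 at day 3 and 11200 to 14420 at day 7. All 12 marker lists of macrophages and other cardiac and blood cell types were detected, and no marker was at 0 in every library. The summed level of 5 resident macrophage markers was 2272 to 3331 unscaled CPM at baseline, 227 to 391 at day 3 and 321 to 553 at day 7, and that of 7 fibroblast markers was 1666 to 5444 unscaled CPM in MyS7KO day 7 libraries against 1169 to 3324 in S7fl/fl day 7 libraries. In 3 day 3 libraries (MyS7KO replicates 2 and 3, S7fl/fl replicate 4) both Xist and Y-linked genes had reads, with the lesser of these signals above 2%.

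Start windows are shown first for some of the genes named below and for Rpl15, since the start of the mRNA is where a TOP tract would lie. RefSeq promoter entries on GRCm38.p6 matched 66 of the 86 genes. Each window holds 10 bases before and 20 bases from the annotated start, read 5′ to 3′ on the gene's own strand, so that the start is the 11th base. Capitals mark the pyrimidine run nearest the start that opens with a C within 10 bases of the start and continues with at least 4 more C or T. The windows of Rps27 (chr3:90213629-90213658, minus strand), Rps27l (chr9:66946076-66946105, plus strand, the upstream of the annotated starts) and Rps27rt (chr9:114982720-114982749, minus strand) compare a small-subunit gene with its paralogues.
Rps27: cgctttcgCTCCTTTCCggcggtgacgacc
Rps27l: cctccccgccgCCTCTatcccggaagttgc
Rps27rt: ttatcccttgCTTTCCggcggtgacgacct

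The next windows belong to Rpl15 (chr14:18270967-18270996, minus strand) and Rplp2 (chr7:141447641-141447670, plus strand), where a long run crosses the annotated start. Those of Rps2 (chr17:24720053-24720082, plus strand), Rplp0 (chr5:115559457-115559486, plus strand) and Rpl41 (chr10:128549149-128549178, minus strand) follow. Rps2, Rplp0 and Rpl41 are among the genes with the highest values below. They hold a short run or none that opens within 10 bases of the start.
Rpl15: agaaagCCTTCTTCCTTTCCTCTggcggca
Rplp2: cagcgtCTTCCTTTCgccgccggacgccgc
Rps2: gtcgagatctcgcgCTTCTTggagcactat
Rplp0: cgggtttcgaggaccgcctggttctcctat
Rpl41: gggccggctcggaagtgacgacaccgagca

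The annotated start was itself a C followed by at least 4 pyrimidines, as part of a run that could open further upstream, in 14 of the 66 matched genes (21.2%) and in 813 of the 27025 genes with a promoter entry (3.01%). Allowing that C to lie within 10 bases on either side of the start, 60.6% of the ribosomal protein genes and 34.4% of all genes held one. In the promoter entries, from 250 bases before to 50 bases after the start and counting both strands, the word CCGGAAG, the core of the motif of the ETS factor GABPA, was found in 39.4% of the ribosomal protein genes and in 9.93% of all genes. The YY1 word AAGATGGC was found in 9.09% of the ribosomal protein genes against 3.19% of all genes, the Sp1 word GGGCGG in 62.1% against 38.2% of all genes, and the TATA-box word TATAAA in 10.6% against 15.7% of all genes. These are matches of letters, and the annotated starts may not be the starts used in these cells.

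Most of these genes were measured at high levels, and 66 of the 86 genes averaged at least 100 FPKM (the authors' fragment value scaled to gene length and library depth, on which genes can be compared). The highest means over the 23 libraries were those of Rplp1, an acidic protein of the ribosomal stalk, at 1374 FPKM, and Rps3a1 and Rps15, small-subunit proteins, at 803 and 798 FPKM. Rpl17, a large-subunit protein at the peptide exit, and Rplp0, the base of the stalk, followed at 786 and 749 FPKM. The median was 220 FPKM over the 46 large-subunit genes, 301 FPKM over the 31 small-subunit genes and 5.26 FPKM over the 8 paralogues. Among the paralogues Rps27l stood highest at 95.05 FPKM, within the range of the core genes.

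**Figure D1:**
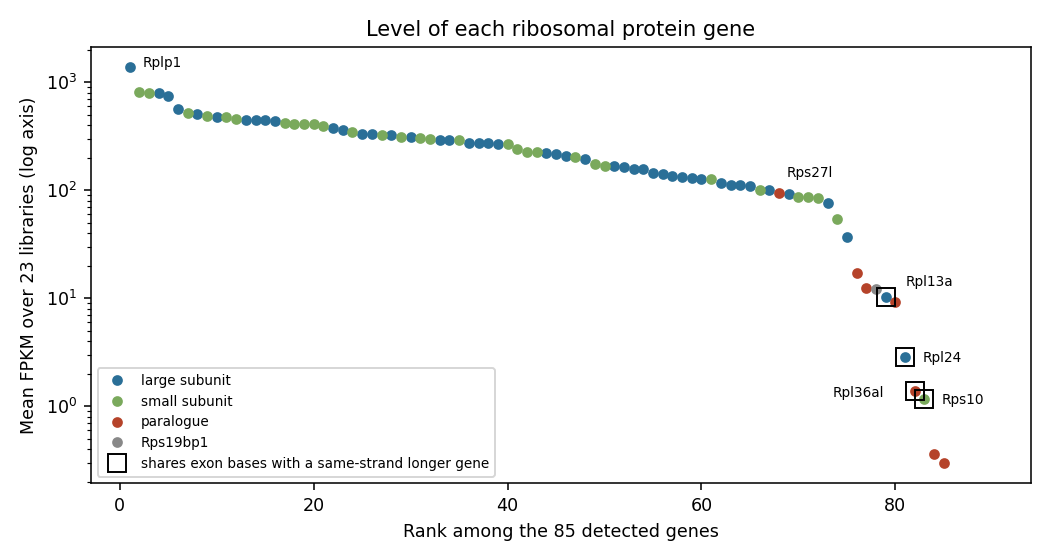
Mean FPKM over the 23 libraries (log axis) of the 85 detected ribosomal protein genes, ordered by rank, with large-subunit genes in blue, small-subunit genes in green, paralogues in red and Rps19bp1 in grey. Rplp1 leads at 1374 FPKM, Rps27l at 95.05 FPKM is the highest paralogue, and the 4 boxed genes, which share exon bases with a longer gene on the same strand, lie between 1.18 and 10.2 FPKM.

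The level was far below that of the other core genes for Rpl13a at 10.2 FPKM, Rpl24 at 2.89 FPKM and Rps10 at 1.18 FPKM, against 36.8 to 1374 FPKM (median 271 FPKM) in the other 74 core genes. In the GENCODE annotation of GRCm38.p6, each of these shares exon bases with a longer same-strand gene: Gm45713 covers 29.4% of the exon bases of Rpl13a, Gm28037 covers 47.0% of those of Rpl24, and RPS10-NUDT3 covers 20.6% of those of Rps10. The paralogue Rpl36al, at 1.37 FPKM, shares 24.5% of its exon bases with Gm49383. All 4 longer genes had 0 counts in every library. How reads in shared exon bases were counted is not given in the sources used here, so the levels of Rpl13a, Rpl24, Rps10 and Rpl36al are uncertain, and the part of the overlap in them was not tested. Similar sequence also touches the counts: 77 genes share at least 1 word of 100 bases with a transcript of another gene, and 21 share most of their words. Rps2 shares 43.8% of its words with 36 other genes, Rps27rt shares 89.5% of its words, mostly with Rps27, and Rps27 shares 40.1% of its own. Among other genes with changes given below, Rps6 shares 83.6% of its words, Rpl35 83%, Rpl5 82.7%, Rpl30 57.75%, Rps27a 53.7% and Rpl11 51.35%. The levels of all these genes are therefore uncertain. Rps27l shares none.

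The paralogues with tissue-restricted or little-known roles were near the limit of detection. Rpl3l, which replaces Rpl3 in striated muscle, averaged 0.295 FPKM and Rpl39l, a testis-enriched copy of Rpl39, averaged 0.364 FPKM. Rpl10l, known from male germ cells, had 0 counts in all libraries, where 3 counts over all libraries together would have been 0.00712 unscaled CPM. This limit covers counting error only.

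The share of all gene counts that fell on the 86 genes was 2.80, 2.54 and 3.34% in the MyS7KO baseline libraries and 2.80, 3.59 and 3.24% in the S7fl/fl baseline libraries. At day 3 it was 3.75, 4.21, 4.47, 3.72 and 4.34% in MyS7KO and 3.51, 3.84, 3.61, 3.44 and 4.19% in S7fl/fl. At day 7 it was 2.99, 3.59, 3.64 and 4.08% in MyS7KO and 3.97, 4.14 and 4.11% in S7fl/fl. The day 3 libraries of MyS7KO all lay above the MyS7KO baseline libraries, and the day 7 libraries of S7fl/fl all lay above the S7fl/fl baseline libraries, whereas the other pairs of a later time and baseline overlapped. At baseline the mean share was 2.89 ± 0.41% in MyS7KO and 3.21 ± 0.40% in S7fl/fl (SD, n = 3 each). At day 3 it was 4.10 ± 0.35% in MyS7KO and 3.72 ± 0.30% in S7fl/fl (n = 5 each), and at day 7 it was 3.57 ± 0.45% in MyS7KO (n = 4) and 4.07 ± 0.09% in S7fl/fl (n = 3).

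**Figure D2:**
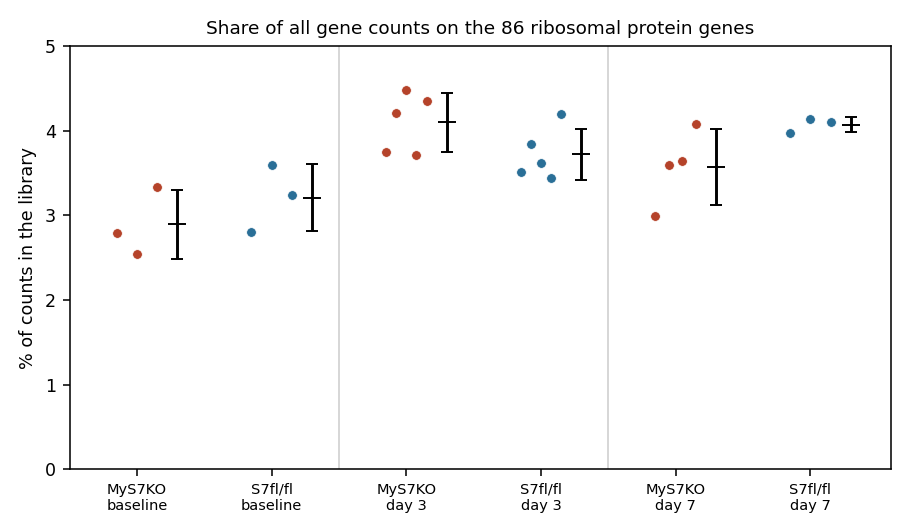
Percent of all gene counts on the 86 ribosomal protein genes in each of the 23 libraries, by group (MyS7KO in red, S7fl/fl in blue), with the mean ± SD of each group as black bars. At day 7 the MyS7KO libraries lie between 2.99 and 4.08% and the S7fl/fl libraries between 3.97 and 4.14%.

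Within a group the genes moved up and down together from library to library. Over the 82 genes with a mean log2 CPM of at least 1, the median SD of a gene around its group means was 0.19 on the log2 scale, and the SD of the mean of all 82 was 0.18, nearly as large. Once that mean was taken away, the median SD was 0.085. Over 12140 genes of the table the median SD of a gene was 0.21, and the SD of their mean was 0.043. TMM scaling itself holds the mean over all genes nearly constant between libraries. That small SD was therefore in part set by the scaling. In MyS7KO day 7 replicate 1, 81 of the 82 genes lay below their group mean, by 0.35 on average, and in MyS7KO baseline replicate 3 all 82 lay above it, by 0.24. The mean length of the other genes that the counts fell on also stood apart in these libraries. It was 5714 bases in MyS7KO day 7 replicate 1, against 5256 to 5563 in the other MyS7KO day 7 libraries and 5210 to 5311 in the S7fl/fl day 7 libraries, and 5366 bases in MyS7KO baseline replicate 3 against 5713 and 5716 in the other MyS7KO baseline libraries. With gene-length offsets in the fit, the median difference between the genotypes over the 85 genes at day 7 was −0.19, against −0.29 without them.

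Among the genes that kept close to the common movement were Rpl9, with an SD of 0.034 after the mean was taken away, and Rps18 with 0.036, both core proteins. The genes farthest from it were Rpl24 and Rps10, the low genes with overlapped exons, with 0.37 and 0.34, and Rps29 and Rpl30 with 0.30 each. Rpl30 overlaps the opposite-strand gene D730044K07Rik over 20.4% of its exon bases, and the sources used here do not say whether counting used strand.

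At day 3 against baseline, ribosomal protein genes rose in both genotypes, most of them by less than 1 on the log2 scale. In MyS7KO 78 of the 85 tested genes rose and 1 fell (edgeR quasi-likelihood test, Benjamini-Hochberg adjusted p under 0.05 over 16545 genes), beside 30.7% of all genes that rose and 35.2% that fell. Their median log2 change was 0.70, against −0.10 over all genes tested. In S7fl/fl 53 of the 85 rose and none fell by the same test, beside 29.9% of all genes that rose and 34.1% that fell, with a median of 0.41 against −0.06 over all genes. By role, 45 of 46 large-subunit and 28 of 31 small-subunit genes rose in MyS7KO, and 31 of 46 and 19 of 31 rose in S7fl/fl. Other measures moved with time in the same libraries, over both genotypes. The summed macrophage markers, given above, were lower in every day 3 library than in every baseline library. The summed resident macrophage markers, also given above, were lower at both later times than at baseline. The sum of 6 classical monocyte markers was 174 to 260 unscaled CPM at baseline, 623 to 1581 at day 3 and 266 to 670 at day 7. That of 7 B cell markers was 184 to 263 at baseline, 28.3 to 58.6 at day 3 and 66.0 to 130 at day 7, and that of 6 endothelial markers 1210 to 2611, 285 to 745 and 177 to 1225. The fibroblast sum was 551 to 1213 at baseline, 225 to 1167 at day 3 and 1169 to 5444 at day 7. The share of counts on mitochondrially encoded genes was 2.41 to 3.69% at baseline, 0.701 to 1.58% at day 3 and 1.06 to 1.53% at day 7. The part of these in the changes was not tested.

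**Figure D3:**
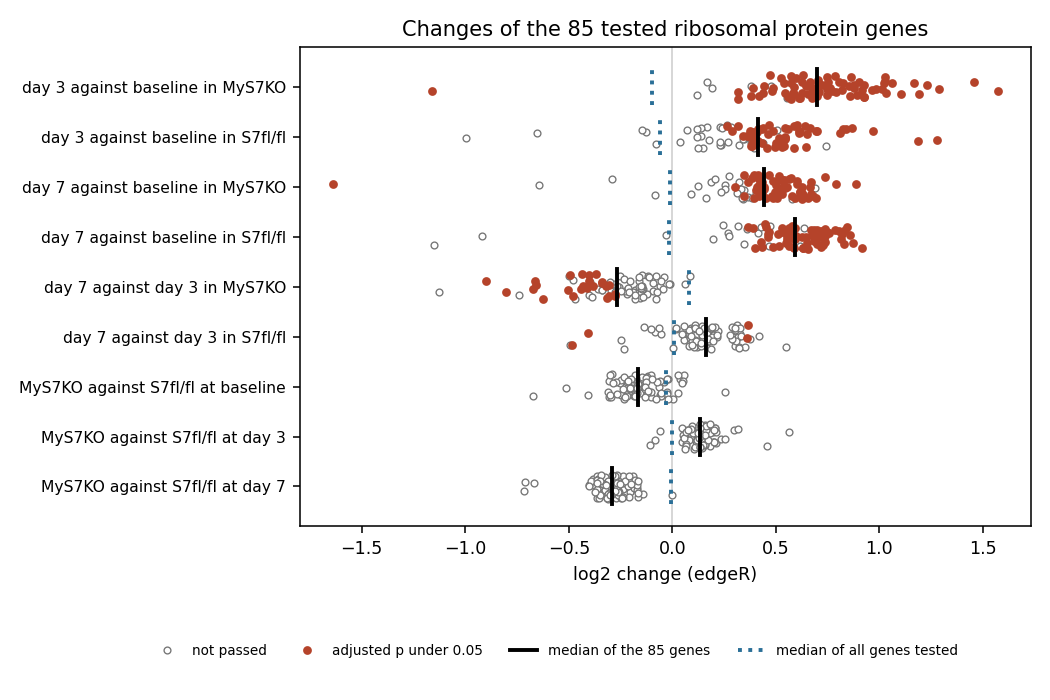
The log2 change of each of the 85 tested ribosomal protein genes in 9 comparisons (edgeR), filled red where the adjusted p was under 0.05, with the median of the 85 genes as a black line and the median of all genes tested as a dotted blue line. The cloud lies right of zero for both times against baseline in both genotypes (medians 0.70, 0.41, 0.44 and 0.59), and no point is filled in the 3 comparisons between genotypes.

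Rps2, a small-subunit protein at the entry of the mRNA channel, had 1198, 1286, 1252, 1058 and 1181 CPM in MyS7KO at day 3 against 521, 465.8 and 544 CPM at baseline. In S7fl/fl it had 1043, 1024, 1034, 1019 and 1220 CPM at day 3 against 443, 655 and 539 CPM at baseline. In both genotypes every day 3 library lay well above every baseline library, and the log2 changes were 1.23 ± 0.13 (SE; adjusted p 2.61e-08, edgeR) in MyS7KO and 0.97 ± 0.13 (adjusted p 7.64e-07) in S7fl/fl.

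Rpsa, a small-subunit protein also known as a laminin-binding protein, had 1132, 1400, 1483, 1156 and 1341 CPM in MyS7KO at day 3 against 566, 502 and 672 CPM at baseline. In S7fl/fl it had 1158, 1162, 1158, 1116 and 1378 CPM at day 3 against 578, 797 and 647 CPM at baseline. The day 3 and baseline libraries did not overlap in either genotype, and the log2 changes were 1.17 ± 0.14 (adjusted p 2.57e-07, edgeR) in MyS7KO and 0.83 ± 0.14 (adjusted p 2.38e-05) in S7fl/fl. Rps26, a small-subunit protein at the mRNA exit, rose by a log2 change of 1.11 ± 0.14 (adjusted p 3.04e-07) in MyS7KO and 0.87 ± 0.14 (adjusted p 7.93e-06) in S7fl/fl.

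Rpl41, the shortest ribosomal protein, had 711, 786, 1036, 759 and 970 CPM in MyS7KO at day 3 against 327, 309 and 410.5 CPM at baseline. In S7fl/fl it had 564.5, 749, 755, 728 and 964 CPM at day 3 against 320, 546 and 422 CPM at baseline. The day 3 libraries lay above the baseline libraries in both genotypes, in S7fl/fl with only a narrow gap, and the log2 changes were 1.29 ± 0.19 (adjusted p 4.26e-06, edgeR) in MyS7KO and 0.81 ± 0.19 (adjusted p 0.000698) in S7fl/fl.

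The stalk, to which elongation factors bind, is built from Rplp0 and the paired acidic proteins Rplp1 and Rplp2. Rplp0 had 1461, 1649, 1683, 1406 and 1608 CPM in MyS7KO at day 3 against 751, 668 and 875 CPM at baseline, and in S7fl/fl 1375, 1513, 1375, 1371 and 1575 CPM at day 3 against 684, 934 and 801 CPM at baseline. Every day 3 library stood above every baseline library, and Rplp0 rose by 1.03 ± 0.12 (adjusted p 2.23e-07, edgeR) in MyS7KO and 0.84 ± 0.12 (adjusted p 3.77e-06) in S7fl/fl on the log2 scale. Rplp2 rose in MyS7KO, by 1.19 ± 0.28 (adjusted p 0.00097), while its change of 0.44 ± 0.27 in S7fl/fl did not pass (adjusted p 0.163). Rplp1 likewise rose in MyS7KO, by 0.70 ± 0.19 (adjusted p 0.00233), and did not pass in S7fl/fl, with 0.23 ± 0.18 (adjusted p 0.283). For neither gene is a difference between the genotypes shown by this, since the test of the difference itself called none of the 85 genes, as given below.

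Rpl5 and Rpl11 form a particle with 5S ribosomal RNA that joins the large subunit and can bind the p53 regulator MDM2. Rpl5 rose by 0.39 ± 0.11 (adjusted p 0.00325, edgeR) in MyS7KO and by 0.26 ± 0.11 (adjusted p 0.036) in S7fl/fl. The S7fl/fl call of Rpl5 was lost with the replicate block, with only the groups compared, and without S7fl/fl baseline replicate 2 or 3 or day 3 replicate 2, in which Rpl5 had 606 CPM against 483 to 518 CPM in the other S7fl/fl day 3 libraries. Rpl11 rose by 0.71 ± 0.13 (adjusted p 5.8e-05) in MyS7KO and 0.43 ± 0.13 (adjusted p 0.00536) in S7fl/fl. Rps6, the small-subunit protein phosphorylated by the S6 kinases, rose by 0.70 ± 0.12 (adjusted p 2.65e-05) in MyS7KO and 0.43 ± 0.12 (adjusted p 0.00306) in S7fl/fl, and Rps19, a small-subunit protein mutated in Diamond-Blackfan anaemia, by 1.02 ± 0.15 (adjusted p 2.46e-06) in MyS7KO and 0.69 ± 0.14 (adjusted p 0.000235) in S7fl/fl. Rps19bp1, the RPS19-binding protein caught by the naming rule, had the largest change of the 85 in MyS7KO, with 1.57 ± 0.17 (adjusted p 5.67e-08), and 1.19 ± 0.17 (adjusted p 2.62e-06) in S7fl/fl.

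**Figure D4:**
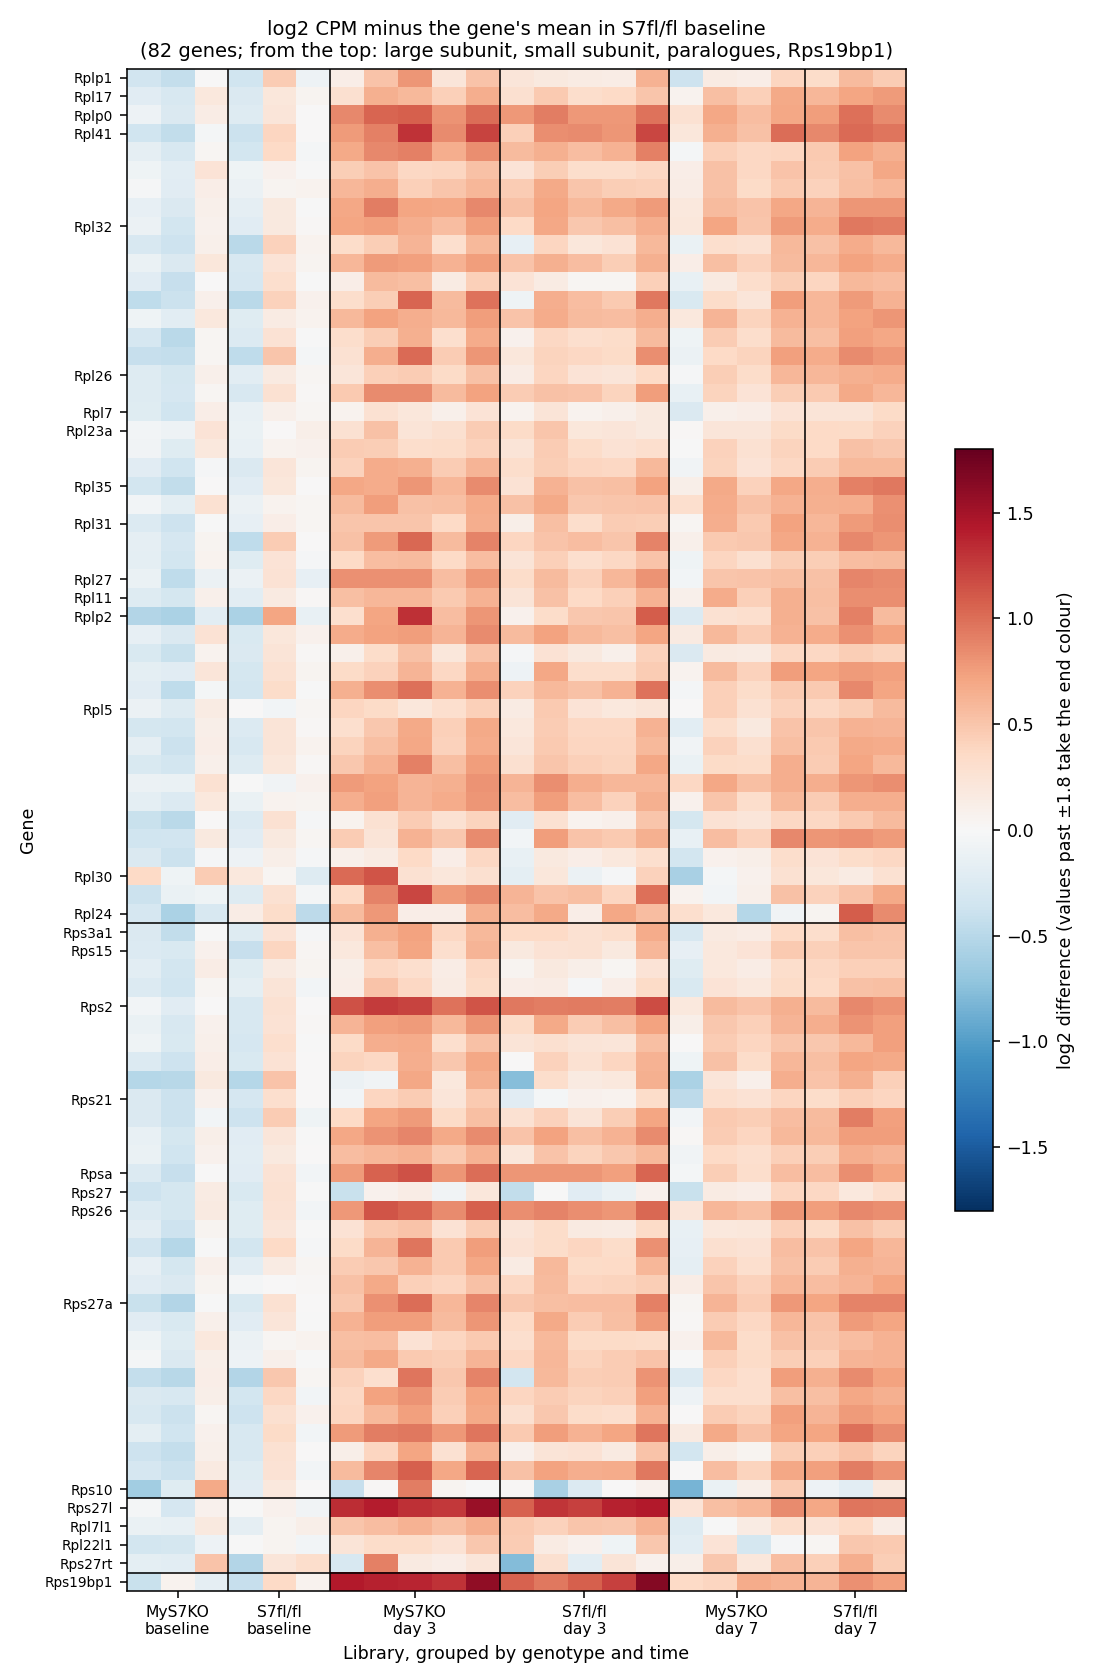
The log2 CPM of 82 ribosomal protein genes (down the page: large subunit, small subunit, paralogues, Rps19bp1; ordered by level within each; the genes that the naming rule picks are labelled) in the 23 libraries, minus the gene's mean in the S7fl/fl baseline libraries, with red higher and blue lower. Most genes are red at days 3 and 7, and Rps2, Rps27l and Rps19bp1 are red in every day 3 library. Whole columns are paler or darker together, such as the first MyS7KO day 7 library.

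In MyS7KO at day 3 the changes of 6 genes did not pass in either direction. They were Rps10, Rps27, Rps29 and Rpl30 of the core and the paralogues Rps27rt and Rpl39l. Not passing does not show that they stayed level, since 84 of the 85 changes, all but that of Rpl3l, were above zero. The lone fall was that of Rpl3l, by 1.16 ± 0.48 on the log2 scale (adjusted p 0.039, edgeR), at 0.199 to 0.577 CPM in MyS7KO at day 3 against 0.595 to 1.08 CPM at baseline. In S7fl/fl its change was −0.998 ± 0.48 (adjusted p 0.0747). The MyS7KO libraries of day 3 lay just below those of baseline, at few counts, and leaving out any of 5 of the 8 MyS7KO libraries ended the call. The summed level of 7 cardiomyocyte markers moved the same way, at 10.6 to 30.4 unscaled CPM at day 3 against 72.4 to 113 at baseline over both genotypes, and its part in the change of this muscle paralogue was not tested.

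At day 7 against baseline most of these genes were higher in both genotypes. In MyS7KO 59 of the 85 rose and 1, again Rpl3l, fell (edgeR, adjusted p under 0.05), beside 22.2% of all genes that rose and 21.8% that fell, with a median log2 change of 0.44 against −0.01 over all genes. The call of Rpl3l, at 0.128 to 0.408 CPM in MyS7KO at day 7, was lost without MyS7KO baseline replicate 1. In S7fl/fl 68 rose and none fell, beside 24.8% of all genes that rose and 25.4% that fell, with a median of 0.59 against −0.02. By role, 36 of 46 large-subunit and 21 of 31 small-subunit genes rose in MyS7KO, and 40 of 46 and 26 of 31 in S7fl/fl. Without MyS7KO baseline replicate 2 the MyS7KO count of called genes was 34, against 60 with it.

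Rpl32, a large-subunit protein, had 350, 500, 429 and 517 CPM in MyS7KO at day 7 against 284, 242 and 322 CPM at baseline, and in S7fl/fl 483, 589 and 575 CPM at day 7 against 265, 345 and 309 CPM at baseline. The later libraries lay above the baseline libraries in both genotypes, by the least in MyS7KO, and the log2 changes were 0.67 ± 0.13 (adjusted p 0.000311, edgeR) in MyS7KO and 0.84 ± 0.14 (adjusted p 3.71e-05) in S7fl/fl. Rpl41 rose by 0.89 ± 0.20 (adjusted p 0.000872) in MyS7KO and 0.91 ± 0.21 (adjusted p 0.000847) in S7fl/fl, and Rplp0 by 0.63 ± 0.13 (adjusted p 0.000398) in MyS7KO and 0.86 ± 0.14 (adjusted p 1.96e-05) in S7fl/fl. Rps2 rose by 0.56 ± 0.13 (adjusted p 0.00126) in MyS7KO and 0.74 ± 0.14 (adjusted p 0.000135) in S7fl/fl. In MyS7KO Rps27a, which encodes ubiquitin fused to a small-subunit protein, rose by 0.79 ± 0.17 (adjusted p 0.000661), the large-subunit gene Rpl35 by 0.74 ± 0.14 (adjusted p 0.000269) and Rpl31 by 0.69 ± 0.14 (adjusted p 0.000334). Neither Rplp1 nor Rplp2 passed at day 7 in either genotype, with log2 changes of 0.34 to 0.69 over the 4 values.

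At day 7 relative to day 3, ribosomal protein genes were called mainly in MyS7KO, although the test of the difference between genotypes called none, as given below. In MyS7KO 25 of the 85 genes were lower at day 7 than at day 3 and none was higher (edgeR, adjusted p under 0.05), beside 19.1% of all genes that fell and 20.5% that rose, with a median log2 change of −0.27 against 0.08 over all genes. By the same test in S7fl/fl 2 were higher and 2 lower, beside 11.5% of all genes that rose and 10.1% that fell, with a median of 0.16 against 0.01. The MyS7KO count was 12 without day 7 replicate 1, the library in which nearly every ribosomal protein gene was low, and 13 without the 3 libraries of mixed sex signal.

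Rps2 had 612, 796.5, 772 and 837 CPM in MyS7KO at day 7 against 1198, 1286, 1252, 1058 and 1181 CPM at day 3, with no overlap and a log2 change of −0.66 ± 0.11 (adjusted p 7.28e-05, edgeR). In S7fl/fl it had 798, 981 and 945 CPM at day 7 against 1019 to 1220 CPM at day 3, also without overlap, but the change of −0.23 ± 0.12 did not pass (adjusted p 0.191). Rpsa fell by 0.63 ± 0.13 (adjusted p 0.000421) in MyS7KO, and its change of −0.14 ± 0.14 in S7fl/fl did not pass (adjusted p 0.529).

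Rps19bp1 fell by 0.90 ± 0.15 (adjusted p 5.56e-05, edgeR) in MyS7KO, at 9.37 to 11.7 CPM at day 7 against 17.9 to 22.2 CPM at day 3, and by 0.49 ± 0.16 (adjusted p 0.0366) in S7fl/fl, at 11.2 to 12.9 CPM at day 7 against 14.1 to 22.9 CPM at day 3. The times did not overlap in either genotype, but leaving out any of 5 of the 8 libraries ended the S7fl/fl call.

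Rpl30, a large-subunit protein, fell in MyS7KO by 0.67 ± 0.20 (adjusted p 0.0112, edgeR). It had 63.7, 92.6, 100.5 and 116 CPM in MyS7KO at day 7 against 193, 209, 115, 109 and 116 CPM at day 3. Day 3 replicates 1 and 2 stood far above the other 3, which overlapped the day 7 libraries, and the call was lost without MyS7KO day 7 replicate 1. In S7fl/fl the 2 genes that rose were Rpl26 (0.37 ± 0.12, adjusted p 0.0309) and Rpl31 (0.36 ± 0.13, adjusted p 0.0488), both proteins of the large subunit near the nascent-peptide exit. Leaving out a library ended the call of Rpl26 in 6 of 8 cases and that of Rpl31 in 7 of 8.

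Rps27l, the paralogue of the zinc-finger small-subunit protein Rps27 and a known p53 target, was the ribosomal protein gene that changed most by day 3 after Rps19bp1 in MyS7KO, and the one that changed most in S7fl/fl. Rps27l (ENSMUSG00000036781, chr9:66946086-66949516, plus strand, GRCm38) had 106.5, 113, 106, 102 and 124 CPM in MyS7KO at day 3 against 41.3, 34.5 and 44.6 CPM at baseline. In S7fl/fl it had 88.4, 103, 99.4, 110.5 and 114 CPM at day 3 against 42.0, 44.8 and 40.5 CPM at baseline. Each day 3 library stood far above every baseline library, and the log2 changes were 1.46 ± 0.12 (adjusted p 8.58e-10, edgeR) in MyS7KO and 1.28 ± 0.12 (adjusted p 5.89e-09) in S7fl/fl.

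At day 7 Rps27l had 50.3, 61.9, 64.4 and 76.2 CPM in MyS7KO and 68.8, 82.4 and 81.7 CPM in S7fl/fl. These libraries lay between those of baseline and day 3 in both genotypes, without overlapping either. Against baseline Rps27l was higher by 0.66 ± 0.12 (adjusted p 0.00017, edgeR) in MyS7KO and 0.87 ± 0.13 (adjusted p 9.58e-06) in S7fl/fl. Against day 3 it was lower, with log2 changes of −0.80 ± 0.11 (adjusted p 3.86e-06) in MyS7KO and −0.41 ± 0.12 (adjusted p 0.0137) in S7fl/fl, and the S7fl/fl call was lost without day 7 replicate 2.

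Rps27 itself had 239, 332, 344.5, 301 and 361 CPM in MyS7KO at day 3 against 243, 253 and 348 CPM at baseline, and in S7fl/fl 231, 312, 274, 288.5 and 333 CPM at day 3 against 261, 381 and 313 CPM at baseline. The day 3 libraries overlapped the baseline libraries in both genotypes. The log2 changes were 0.17 ± 0.17 (adjusted p 0.386, edgeR) in MyS7KO and −0.15 ± 0.16 (adjusted p 0.451) in S7fl/fl, so that changes within 2 SE run from −0.17 to 0.50 and from −0.47 to 0.18. The day 7 changes against baseline of 0.25 ± 0.17 in MyS7KO and 0.27 ± 0.18 in S7fl/fl did not pass either (adjusted p 0.245 in MyS7KO and 0.225 in S7fl/fl, edgeR). In S7fl/fl the day 7 libraries, at 406, 360 and 389 CPM, lay above all day 3 libraries, and that change of 0.42 ± 0.16 did not pass (adjusted p 0.0701). Rps27 was among the 4 core genes whose group means differed least, with Rps10, Rpl23a and Rpl7.

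**Figure D5:**
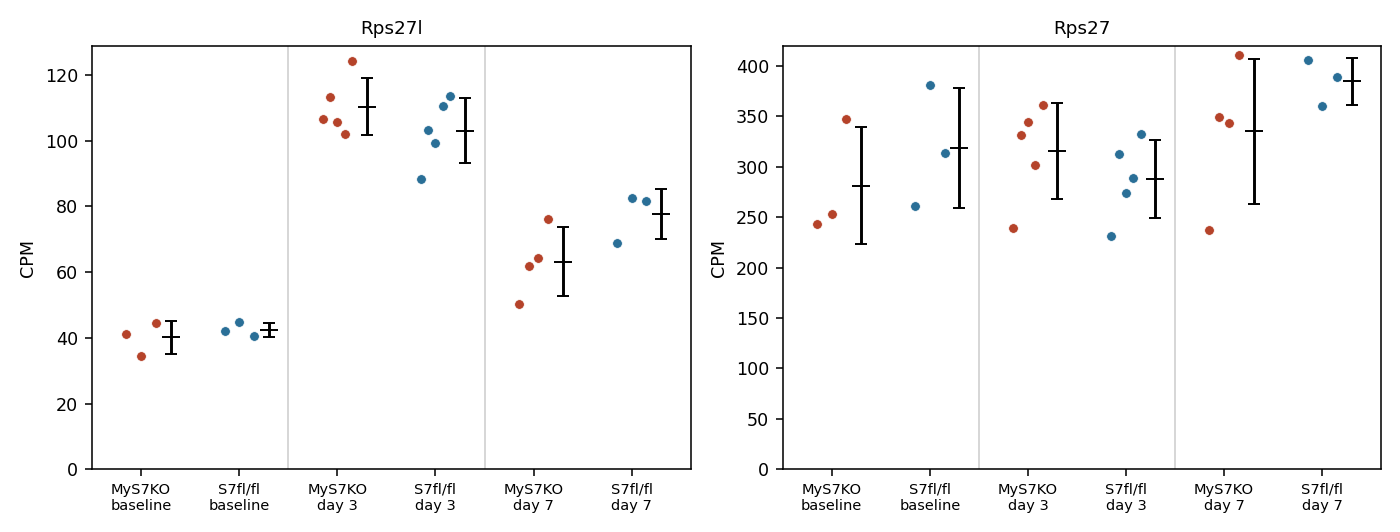
CPM of Rps27l (left) and Rps27 (right) in the 23 libraries by group, MyS7KO in red and S7fl/fl in blue, with mean ± SD as black bars and axes that start at 0. The Rps27l libraries of day 3 (88.4 to 124 CPM) stand apart from those of baseline (34.5 to 44.8 CPM), while the Rps27 libraries of these times overlap.

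Set against its parent, the level of Rps27l was 14.5 ± 2.2% of the Rps27 counts in MyS7KO and 13.6 ± 2.2% in S7fl/fl at baseline (SD, n = 3 each). It was 35.5 ± 5.2% in MyS7KO and 35.99 ± 2.38% in S7fl/fl at day 3 (n = 5 each), and 19.1 ± 1.5% in MyS7KO (n = 4) and 20.3 ± 3.0% in S7fl/fl (n = 3) at day 7. Both genotypes thus had the same order of times, with day 3 far above the other two. This ratio, which takes out only movement that both genes share equally, was chosen after values had been seen. Around its group means Rps27 had an SD of 0.25 on the log2 scale and Rps27l 0.16, so some common movement stays in the ratio. The ratio also depends on Rps27, whose changes did not pass where those of most other genes did, and whose level is uncertain. In an exact two-sided permutation test that kept libraries within their genotype, the mean log2 difference was 1.35 for day 3 against baseline (p 0.000319, adjusted over 9 tests 0.000717), 0.49 for day 7 against baseline (p 0.00143, adjusted 0.00257) and −0.86 for day 7 against day 3 (p 0.000142, adjusted 0.000638). Each p is the smallest that the number of rearrangements allows.

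The other paralogue ratios moved less. Rpl7l1, a relative of Rpl7 that is known to act in ribosome assembly, was 9.38 ± 0.42% of the Rpl7 counts in MyS7KO and 9.19 ± 0.67% in S7fl/fl at day 3 (SD, n = 5 each), against 7.77 ± 0.45% in MyS7KO and 7.09 ± 0.31% in S7fl/fl at baseline (n = 3 each). The mean log2 difference was 0.32 for day 3 against baseline (exact permutation test, adjusted p 0.000717), −0.39 for day 7 against day 3 (adjusted p 0.000638) and −0.07 for day 7 against baseline (adjusted p 0.336). The ratio of Rpl22l1 to Rpl22 passed in no comparison, with mean log2 differences of 0.11, −0.04 and −0.15 for day 3 against baseline, day 7 against baseline and day 7 against day 3 (exact permutation tests, adjusted p 0.368, 0.729 and 0.336).

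As single genes, Rpl7l1 rose at day 3 in both genotypes, by 0.60 ± 0.11 (adjusted p 4.24e-05, edgeR) in MyS7KO and 0.49 ± 0.11 (adjusted p 0.000321) in S7fl/fl. Rpl22l1 rose at day 3 in MyS7KO by 0.57 ± 0.14 (adjusted p 0.0011), and its change of 0.23 ± 0.14 in S7fl/fl did not pass (adjusted p 0.141). Rpl36al rose in MyS7KO at day 3 by 0.86 ± 0.34 (adjusted p 0.0297), but leaving out any of 3 of the 8 libraries ended that call. The retrogene Rps27rt, with most of its sequence shared with Rps27, passed in no comparison between times, and neither did Rpl39l.

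The 14 genes whose annotated start was a C followed by at least 4 pyrimidines were set beside the 51 other tested genes with a promoter entry. At day 3 against baseline the median log2 change was 0.76 over the 14 genes and 0.72 over the 51 in MyS7KO, and 0.47 and 0.44 in S7fl/fl. Of the 14 genes 11 rose in MyS7KO and 7 in S7fl/fl, and of the 51 genes 49 rose in MyS7KO and 36 in S7fl/fl. Of all genes 30.7% rose in MyS7KO and 29.9% in S7fl/fl. For day 7 against baseline the medians were 0.47 over the 14 genes and 0.50 over the 51 in MyS7KO, and 0.57 and 0.63 in S7fl/fl. At that time 8 of the 14 rose in each genotype, and of the 51 genes 38 rose in MyS7KO and 44 in S7fl/fl. Of all genes 22.2% rose in MyS7KO and 24.8% in S7fl/fl. The difference between the 14 and the 51 genes was not tested. Both Rps27, which did not pass, and Rplp2, which rose by 1.19 in MyS7KO at day 3, hold a tract close to or across the start in the windows above.

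Between genotypes no ribosomal protein gene passed at any time. At baseline 0 of the 85 genes passed in MyS7KO against S7fl/fl (edgeR, beside 0.0121% of all genes), and 0 had an unadjusted p under 0.05, beside 375 of the 16545 genes tested. The median log2 difference was −0.17, with 77 of the 85 below zero, against −0.03 over all genes. The day 3 libraries also gave 0 genes that passed (beside 0.0121% of all genes) and 1 had an unadjusted p under 0.05, beside 594 of all genes, with a median of 0.14, 82 of 85 above zero, against −0.002 over all genes. The day 7 libraries gave 0 that passed (beside 0.0181% of all genes) and 33 had an unadjusted p under 0.05, beside 2173 of all 16545 genes, with a median of −0.29, 84 of 85 below zero, against −0.01 over all genes. DESeq2 and limma-voom also called 0 genes at each time. Because the genes of a library move together, a count of signs over the 85 genes does not add up as 85 separate observations.

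The lowest p-values between genotypes named the following genes, none of which passed. At baseline Rps27a differed by −0.31 ± 0.18 on the log2 scale, Rplp2 by −0.51 ± 0.30 and Rpl35 by −0.25 ± 0.15 (adjusted p 0.999 each, edgeR). At day 3 Rpl30 differed by 0.56 ± 0.19, Rpl27 by 0.21 ± 0.12 and Rps21 by 0.25 ± 0.15 (adjusted p 0.982 each), and the 193 and 209 CPM of Rpl30 in MyS7KO day 3 replicates 1 and 2 stood apart from 109 to 116 CPM in the other MyS7KO day 3 libraries and 84.5 to 126 CPM in the S7fl/fl day 3 libraries.

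At day 7 Rpl22l1 differed by −0.40 ± 0.14 (adjusted p 0.313, edgeR), with 20.02, 27.2, 18.3 and 22.5 CPM in MyS7KO against 23.4, 32.1 and 31.7 CPM in S7fl/fl. Rpl24 differed by −0.71 ± 0.26 (adjusted p 0.321), at 1.69 to 2.97 CPM in MyS7KO against 2.50 to 5.13 CPM in S7fl/fl, and Rpsa by −0.37 ± 0.14 (adjusted p 0.33), with 655, 908, 835 and 980 CPM in MyS7KO against 984, 1188 and 1091 CPM in S7fl/fl. The libraries of Rpl22l1 and Rpl24 overlapped between the genotypes, whereas those of Rpsa were separated by a narrow gap. Without MyS7KO day 7 replicate 1 the median of the 85 genes between genotypes at day 7 was −0.18. The fibroblast marker sum reached 5444 unscaled CPM in MyS7KO day 7 libraries against 3324 in S7fl/fl day 7 libraries, with overlap, and its part in the day 7 values was not tested. All MyS7KO day 7 libraries had Xist as the main sex signal, and all S7fl/fl day 7 libraries had Y-linked genes. At day 7 sex and genotype therefore cannot be told apart. Each group of baseline and day 3 held libraries of both signals. The comparisons of day 7 with these times, and of the genotype effect between them, are thus also unbalanced for sex, in opposite directions in the genotypes.

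Whether the genotype effect itself differed from one time to another was also tested, and 0 of the 85 genes passed in each comparison (edgeR, beside 0% of all genes). For day 7 against day 3 the median was −0.44, all 85 genes were below zero and 54 had an unadjusted p under 0.05, beside 1726 of all 16545 genes, with a lowest adjusted p of 0.416. For day 3 against baseline the median was 0.30 (3 genes with an unadjusted p under 0.05, beside 741 of all genes) and for day 7 against baseline −0.14 (0 genes, beside 862 of all genes). Over all genes tested the medians were 0.02 for day 7 against day 3, 0.03 for day 3 against baseline and 0.002 for day 7 against baseline. These differences share libraries with the single comparisons and with each other, so their directions are not separate observations.

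Other genes of translation are given for the same libraries. Fau, a small-subunit protein fused to a ubiquitin-like domain, and Rack1, a scaffold on the small subunit, escape the naming rule. Rack1 rose at day 3 by 0.62 ± 0.11 on the log2 scale (adjusted p 3.49e-05, edgeR) in MyS7KO and 0.53 ± 0.11 (adjusted p 0.000206) in S7fl/fl. Fau rose at day 3 in MyS7KO by 0.60 ± 0.18 (adjusted p 0.00537), and its change of 0.21 ± 0.18 in S7fl/fl did not pass (adjusted p 0.318). By day 7 both rose against baseline in both genotypes.

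Of 17 elongation and other classical TOP genes, 14 rose and 1 fell at day 3 in MyS7KO, and 13 rose and 1 fell in S7fl/fl, with medians of 0.53 and 0.45. Of all genes 30.7% rose and 35.2% fell in MyS7KO, and 29.9% rose and 34.1% fell in S7fl/fl. Eef1g, a subunit of the exchange factor for eEF1A, rose by 1.30 ± 0.11 (adjusted p 9.18e-10, edgeR) in MyS7KO and 1.05 ± 0.11 (adjusted p 2.12e-08) in S7fl/fl. Eef1a1, the carrier of aminoacyl-tRNA, rose by 0.47 ± 0.12 (adjusted p 0.00133) in MyS7KO and 0.58 ± 0.12 (adjusted p 0.000167) in S7fl/fl. Relative to baseline, 14 of the 17 rose and 1 fell at day 7 in each genotype. At that time 22.2% of all genes rose and 21.8% fell in MyS7KO, and 24.8% rose and 25.4% fell in S7fl/fl.

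Of 33 ribosome biogenesis genes, 24 rose and 1 fell at day 3 in each genotype, with medians of 0.66 in MyS7KO and 0.65 in S7fl/fl. Of all genes 30.7% rose and 35.2% fell in MyS7KO, and 29.9% rose and 34.1% fell in S7fl/fl. At day 7 against day 3, 28 of the 33 fell in MyS7KO, and 24 fell and 1 rose in S7fl/fl. Between these times 19.1% of all genes fell and 20.5% rose in MyS7KO, and 10.1% fell and 11.5% rose in S7fl/fl. Pno1, needed for small-subunit assembly, rose at day 3 by 1.74 ± 0.14 (adjusted p 4.13e-10, edgeR) in MyS7KO and 1.83 ± 0.14 (adjusted p 2.21e-10) in S7fl/fl, and Rrp12, known from yeast for export of both subunits, by 1.68 ± 0.14 (adjusted p 1.37e-09) in MyS7KO and 1.88 ± 0.15 (adjusted p 3.28e-10) in S7fl/fl. Relative to baseline, 7 of these genes rose at day 7 and 5 fell in MyS7KO, and 10 rose and 4 fell in S7fl/fl, beside 22.2% of all genes that rose and 21.8% that fell in MyS7KO and 24.8% that rose and 25.4% that fell in S7fl/fl. Their median log2 change at that time was −0.03 in MyS7KO and 0.11 in S7fl/fl, beside 0.44 and 0.59 for the ribosomal protein genes. The difference between these lists was not tested.

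Of 18 genes that control the translation of TOP mRNAs, 7 rose and 5 fell at day 3 in MyS7KO, and 5 rose and 4 fell in S7fl/fl. Of all genes 30.7% rose and 35.2% fell in MyS7KO, and 29.9% rose and 34.1% fell in S7fl/fl. Larp1, which binds the tract, rose by 0.63 ± 0.10 (adjusted p 1.8e-05, edgeR) in MyS7KO and 0.75 ± 0.11 (adjusted p 1.8e-06) in S7fl/fl. Deptor, an inhibitor of mTOR, fell by 1.46 ± 0.10 (adjusted p 5.61e-11) in MyS7KO and 1.23 ± 0.10 (adjusted p 8.63e-10) in S7fl/fl.

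The mitochondrial ribosome, a separate particle, has its own set of nuclear genes, of which 77 of 78 were tested. At day 3 against baseline 70 rose and 1 fell in MyS7KO and 66 rose and 2 fell in S7fl/fl, with medians of 1.01 and 0.80. Of all genes 30.7% rose and 35.2% fell in MyS7KO, and 29.9% rose and 34.1% fell in S7fl/fl. Between day 7 and day 3, 68 fell in MyS7KO and none rose, and 22 fell and 1 rose in S7fl/fl, with medians of −0.62 and −0.31. Between these times 19.1% of all genes fell and 20.5% rose in MyS7KO, and 10.1% fell and 11.5% rose in S7fl/fl. Mrpl52 rose at day 3 by 1.92 ± 0.15 (adjusted p 3.89e-10, edgeR) in MyS7KO and 1.65 ± 0.15 (adjusted p 3.29e-09) in S7fl/fl. Mrps6 fell at day 7 against baseline by 1.55 ± 0.20 (adjusted p 1.58e-06) in MyS7KO and 1.65 ± 0.22 (adjusted p 1.87e-06) in S7fl/fl.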

How the data were processed

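Groups follow the genotype and time in the labels. The deposited table holds the authors' raw read counts per gene, and a companion deposited table holds the authors' FPKM values. Per the submitters' processing notes TopHat2 2.0.9, Cufflinks 2.1.1 and HTSeq 0.6.1 were used with builds mm10 and GRCm38.p6, and whether counting used strand is not given in the sources used here. The ribosomal protein genes, the other gene lists and the tests were chosen with earlier results of these data known.

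The count tests used edgeR 4.0.16 in R 4.3.3 with TMM scaling, the filterByExpr low-count filter (16545 genes kept) and robust quasi-likelihood fits with a coefficient per group over all 23 libraries. Two-sided p-values were adjusted over these genes by Benjamini-Hochberg, with a threshold of 0.05. The SE of a log2 change is its size divided by the square root of F. The fits were checked on simulated data. A 2 SE range is the change plus and minus 2 SE. Permutation tests rearranged library times within each genotype. Genes were named by a rule on size of change, p, level, role and spread of group means, from genes with a mean log2 CPM of at least 1 for the changes and the spread. Rps6 and Rps19 were added for their known roles, and Rpl9, Rps18 and Rps29 after their values were seen. The window of Rpl15, a gene outside the rule, is shown only for the pyrimidine run at its start. A few genes are not reported here.

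Depth was 15479402 to 23884938 counts per library. Alternatives were RLE scaling, TMM without the ribosomal protein genes, DESeq2 1.42.0, testing with no low-count filter, voom with sample weights in limma 3.58.1, limma-trend on log2(FPKM + 1), only the groups compared, the replicate number as a block, sex as a covariate, gene-length offsets, leaving out the 3 libraries of mixed sex signal, and leaving out each library. Sequences are RefSeq promoter entries on GRCm38.p6, and shared exons and sequence words were read from the GENCODE annotation.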

Additional observations from a re-analysis of the deposited data

Results flagged for a closer look

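In groups of 4 or 5 libraries, 99 sets of values were examined for a single library far from the rest by Dixon's test. They came from 33 measures, the share of counts on the ribosomal protein genes and the levels of single genes. Of the sets 10 stood out, where chance gives about 1 in 20 for separate sets. The genes of a library move together, so these sets are not separate observations. Of the 10, 6 are the same library, S7fl/fl day 3 replicate 5. There Rplp1 had 909 CPM (others 647 to 686), Rps15 638 (474 to 506), Rps2 1220 (1019 to 1043), Rps27a 596 (447 to 470), Rps3a1 1042 (790 to 842.5) and Rpsa 1378 (1116 to 1162). In that library 75 of 82 ribosomal protein genes lay above their group mean, by 0.20 on average on the log2 scale, and the mean length of the other genes counted was 5090 bases against 5398 to 5479 in the other S7fl/fl day 3 libraries. The part of gene length in these single values was not tested.

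Rpl5 had 606 CPM in S7fl/fl day 3 replicate 2 against 483 to 518 in the other S7fl/fl day 3 libraries. Rpl27, a large-subunit protein, had 272 CPM in MyS7KO day 3 replicate 4 against 318 to 328 in the other MyS7KO day 3 libraries, and 180 CPM in MyS7KO day 7 replicate 1 against 262 to 269 in the other MyS7KO day 7 libraries. Rps10, with few counts, had 5.13 CPM in MyS7KO day 3 replicate 3 against 2.04 to 2.80 in the other MyS7KO day 3 libraries.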

How the results depend on the processing

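The count of genes called between genotypes was 0 in each alternative and each left-out library, and the median log2 change of the 85 genes kept its sign in all comparisons. At day 7 against day 3 in S7fl/fl the 4 called genes became 2 with no low-count filter, 19 with limma-voom (16 higher), 2 with sex as a covariate, 1 without the libraries of mixed sex signal, and 0 to 5 over the left-out libraries, with 0 without S7fl/fl day 7 replicate 2. In MyS7KO the count of 25 for the same times became 13 without the libraries of mixed sex signal and 12 to 36 over the left-out libraries. The count of 60 at day 7 against baseline in MyS7KO was 34 to 72 over the left-out libraries, 34 without MyS7KO baseline replicate 2. The other counts against baseline were 74 to 80 (MyS7KO, day 3), 40 to 64 (S7fl/fl, day 3) and 56 to 73 (S7fl/fl, day 7). With gene-length offsets the median between genotypes at day 7 was −0.19. The causes were not tested. Of 53 changes of named genes that passed, 41 passed with each library left out in turn and 43 passed in each other alternative. The calls that were lost are those of Rpl26, Rpl31, Rps19bp1 and Rps27l at day 7 against day 3 in S7fl/fl, Rpl30 at day 7 against day 3 in MyS7KO, and those against baseline of Rpl3l, Rpl5, Rpl7, Rpl23a and Rpl36al.

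The 9 paralogue ratio tests kept their direction and their side of the threshold with each library left out and without the libraries of mixed sex signal, alternatives chosen after seeing the data. Over all genes, same-numbered libraries of a time correlated by −0.30 to 0.23 over 10 pairs, so the numbers were not taken as pairs. For the ribosomal protein genes, all 5 libraries numbered 1 lay below their group mean and all 3 numbered 5 above it, and S7fl/fl day 7 holds neither number. With the replicate block, 39 genes were lower at day 7 against day 3 in MyS7KO.

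Of 45 changes of named genes that did not pass, 26 kept their sign and still did not pass with each library left out in turn. Over the other alternatives 26 did so. Of the single values, 10 of 324 passed with the same sign when a library was left out, and 26 of 464 did in the other alternatives. Some values that did not pass changed sign. Without the libraries of mixed sex signal, the day 3 changes against baseline in MyS7KO were −0.030 for Rps27rt and −0.14 for Rps10. At day 7 against baseline Rps10 was 0.38 with limma-voom and 0.061 with the sex covariate in MyS7KO, and 0.050 with limma-voom in S7fl/fl. Over the left-out libraries, the MyS7KO ranges at day 7 against baseline were −0.0036 to 0.20 for Rpl7l1, −0.27 to 0.56 for Rpl36al, −1.47 to 0.75 for Rpl39l and −0.31 to 0.38 for Rps10. At day 3 they were −0.10 to 1.88 for Rpl39l, −0.027 to 0.47 for Rps27rt and −0.14 to 0.59 for Rps10. In S7fl/fl they were −0.25 to 0.092 for Rps27rt and −0.21 to 0.0043 for Rps27 at day 3, and −0.14 to 0.070 for Rps10 at day 7.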
